A study of Schizosaccharomyces pombe with 6 samples.

Results

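The 41 genes described here code for proteins of the cytosolic ribosome of *Schizosaccharomyces pombe* (fission yeast). They were taken by their systematic identifiers from a list of ribosomal protein genes, not by a cutoff on a measured value. The list was chosen with earlier results of these data known. All 41 were among the 7001 genes in the tables. Of these, 24 code for proteins of the large (60S) subunit and 17 for proteins of the small (40S) subunit. RefSeq annotates 144 cytosolic ribosomal protein genes in all, so the other 103 served as a reference. The gene *rpl701* (SPBC18H10.12c) was on the list although its RefSeq product reads RNase MRP subunit, ribosomal protein L7-like.

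All RNAseq libraries came from haploid *h-* cells harvested after 4 hours at 25 °C in minimal medium lacking nitrogen. WT cells (*h- 972*) gave 2 libraries. Cells labelled *igo1*Δ, in which the Endosulfine gene *igo1* is replaced by a marker (*igo1::kanMX6*, given as a knockdown in another label field), gave 2 more. The last 2 are labelled as *pab1* repression in an *igo1* mutant and came from cells with *igo1::natMx6* and *nmt41-GST-pab1-KanMx6*. In these the deletion bears another marker, and *pab1*, the gene of the B55 regulatory subunit of the phosphatase PP2A, is expressed as a GST fusion from the thiamine-repressible *nmt41* promoter. They are called the *pab1*-repression libraries below. The comparisons ask what loss of Endosulfine does to the mRNAs of starved cells, and whether lowering *pab1* in the same mutant alters them. The labels call the replicates biological without saying how the cultures were kept apart, so p-values measure only the spread between these libraries.

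Ribosomes are made of a large and a small subunit, each built from ribosomal RNA and many proteins. In yeasts most of these proteins are coded by a pair of duplicated genes, or paralogs, whose mRNAs are among the most abundant in growing cells. Cells that lose their nitrogen source slow ribosome production, in part through the kinase TORC1. In *S. pombe* many ribosomal protein genes carry a HomolD box close to their start, an element that takes the place of a TATA box, and some carry a second element, HomolE, just before it.

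Each library held between 14791399 and 18809513 reads on genes. Levels are given as normalised reads, which are reads divided by a TMM factor (edgeR) that brings all 6 libraries to one depth. The targeted genes were examined first. *igo1* had 2021 and 2067 normalised reads in the WT libraries, 1825 and 1706 in the *igo1*Δ-labelled libraries and 1829 and 4813 in the *pab1*-repression libraries. Reads on *igo1* were therefore kept in all 4 libraries labelled as lacking it, and the groups below are named by their labels. *pab1* had 3073 and 2982 normalised reads in WT, 2352 and 2099 in the *igo1*Δ-labelled libraries and 1820 and 1030 in the *pab1*-repression libraries. Its fall between the last groups did not pass the test (log2 fold change -0.73, SE 0.33, adjusted p = 0.199, limma), and with replicate 1 or 2 alone the log2 fold change was -0.30 (adjusted p = 0.0632) or -1.16 (adjusted p = 1.57e-06). *nmt1*, a gene that thiamine switches off, had from 146558 to 202812 reads in the WT libraries and the *igo1*Δ-labelled ones, but 66 and 49 reads in the *pab1*-repression libraries. The protocol in the labels names thiamine in the medium without limiting it to one strain, whereas *nmt1* was low in the *pab1*-repression libraries only. If thiamine was present in those cultures alone, its effect and that of *pab1* repression cannot be told apart.

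The *pab1*-repression pair also differed within itself more than the other pairs. The chi-square per gene between replicates was 419 there, against 9.26 in WT and 40.1 in the *igo1*Δ-labelled libraries. Replicate 2 had 5.50% of its reads on long non-coding RNA genes and 0.187% on ribosomal RNA genes, against at most 3.46% and 0.0300% in the other 5 libraries. Fits with each of these libraries alone are therefore given beside those with both.

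The promoters of the 41 genes were read first, since they are what the genes share besides their products. The letters CAGTCACA (the HomolD box) and ACCCTACCC (the HomolE core) were searched on both strands from 250 bases before to 50 bases after the annotated start of each gene. A HomolD box was present before 30 of the 41 genes (73.2%), before 61 of the 103 other cytosolic ribosomal protein genes (59.2%) and before 137 of all 5112 nuclear coding genes (2.68%). The HomolE core was present before 12 of the 41 (29.3%), 11 of which also had a HomolD box, and before 1.31% of all coding genes. None of the HomolD boxes overlapped a HomolE core. A match is a description of the letters only, and no match says only that these letters are not in the window.

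**Figure D1:**
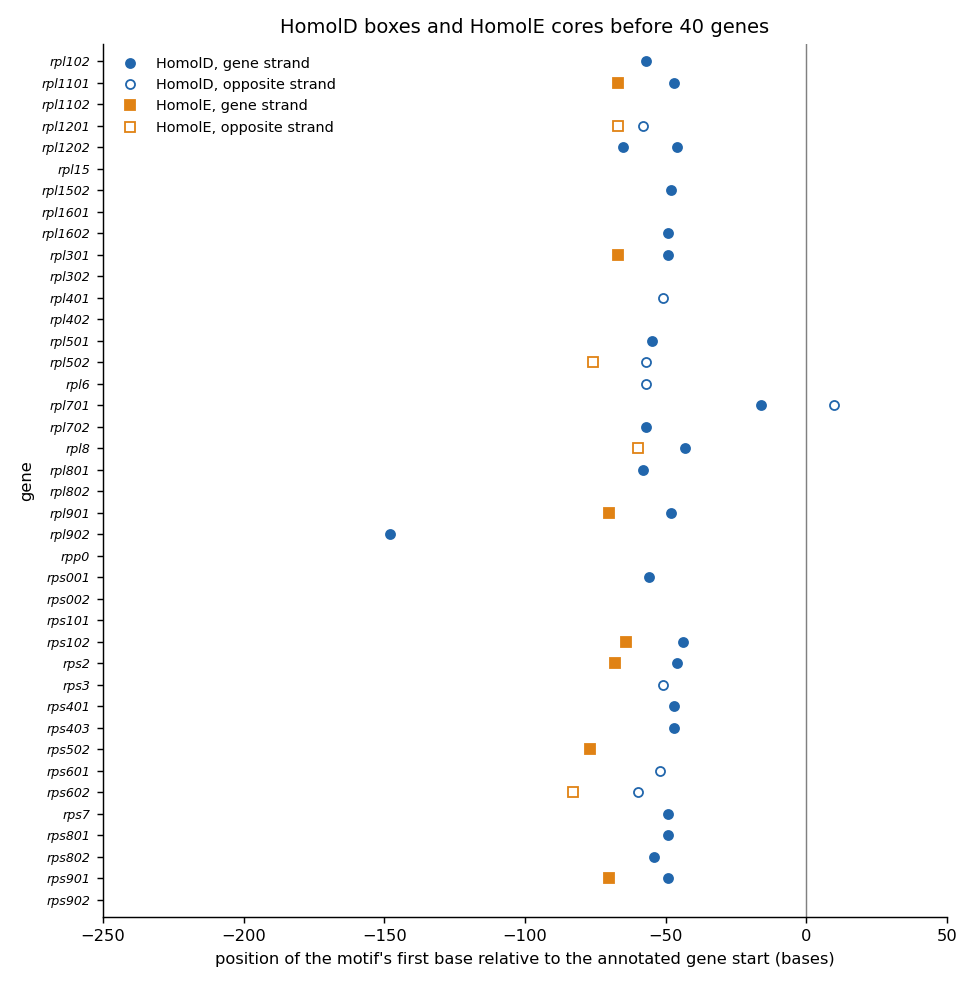
Position of each HomolD box (circles) and HomolE core (squares) relative to the annotated start of 40 of the 41 genes, in bases, with filled symbols for the strand of the gene and open symbols for the opposite strand. Of the 31 HomolD boxes drawn 28 begin between 40 and 65 bases before the start, and the 11 HomolE cores drawn begin 60 to 83 bases before it.

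The spacing was narrow. The HomolD boxes began at a median of 49 bases before the start, with 24 on the strand of the gene and 8 on the opposite strand. The exceptions were *rpl902*, whose box lay 148 bases before the start, and *rpl701*, whose boxes lay 16 bases before and 10 bases after it. The 100 bases before the start are shown for 6 members that the results turn on, namely the most abundant gene (*rps2*), the gene with the smallest change (*rpl102*), and the pairs for uL4 and uL13, which are among the 3 pairs whose copies moved furthest apart. They are RefSeq sequences of assembly ASM294v3, printed 5′ to 3′ on the strand of the gene, with the HomolD and HomolE letters (or their complement, TGTGACTG for HomolD) in capitals. The submitters' notes name ASM294v2, so the coordinates hold for ASM294v3 only.

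rps2 (SPCC576.08c), chrIII:2096037-2096136, minus strand: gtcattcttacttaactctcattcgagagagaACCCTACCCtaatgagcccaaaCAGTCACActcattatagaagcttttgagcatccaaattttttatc
rpl102 (SPBC30D10.18c), chrII:3060449-3060548, plus strand: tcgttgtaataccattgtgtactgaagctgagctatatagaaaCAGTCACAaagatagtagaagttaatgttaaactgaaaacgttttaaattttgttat
rpl401 (SPBC1711.06), chrII:2143020-2143119, plus strand: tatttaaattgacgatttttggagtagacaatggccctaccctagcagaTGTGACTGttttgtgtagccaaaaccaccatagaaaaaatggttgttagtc
rpl402 (SPBP8B7.03c), chrII:3637674-3637773, minus strand: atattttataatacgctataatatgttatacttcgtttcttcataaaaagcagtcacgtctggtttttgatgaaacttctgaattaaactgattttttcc
rpl1601 (SPBC839.13c), chrII:624056-624155, minus strand: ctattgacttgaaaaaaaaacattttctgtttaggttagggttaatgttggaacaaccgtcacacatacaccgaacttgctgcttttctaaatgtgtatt
rpl1602 (SPAC23A1.11), chrI:4097226-4097325, plus strand: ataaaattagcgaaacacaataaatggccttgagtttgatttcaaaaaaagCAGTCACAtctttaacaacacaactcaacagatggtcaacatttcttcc

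The 41 genes also shared their codon use. AAA made up a median of 13.3% of their lysine codons, the same median as in the other cytosolic ribosomal protein genes and against 64.3% over all nuclear coding genes. The members ranged from 0% in *rps2*, which uses AAG for every lysine, to 41.4% in *rpl102*. Per kilobase of transcript, *rps2* (uS5, a protein of the small subunit's mRNA entry channel) was the most abundant in WT, with 421 reads per kilobase of transcript and per 1000000 reads on nuclear coding genes, at percentile 96.6 of the coding genes. The lowest was *rpl1202* (one of the copies for uL11, at the base of the ribosomal stalk), with 55.7 and percentile 63.6. Starved WT cells therefore held all 41 mRNAs above the median coding gene.

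The first comparison set the *igo1*Δ-labelled libraries against WT. All 41 genes were higher in the *igo1*Δ-labelled libraries, with a median log2 fold change of 1.41, or 2.65-fold, where the median over all 5931 genes tested was -0.03. In edgeR's quasi-likelihood test 41 of 41 passed an adjusted p of 0.05, with adjusted p from 2.22e-06 to 9.60e-04, against 29.6% of all genes called higher. For 41 of 41 both *igo1*Δ-labelled libraries also lay above both WT libraries, against 40.2% of all genes. The standard errors ran from 0.07 to 0.20, and no log2 fold change lay under 0.70. Reads on *igo1* were kept in these libraries, so the direction is that between the labelled groups. In bulk RNA, more mRNA per cell and more cells that express a gene cannot be told apart.

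**Figure D2:**
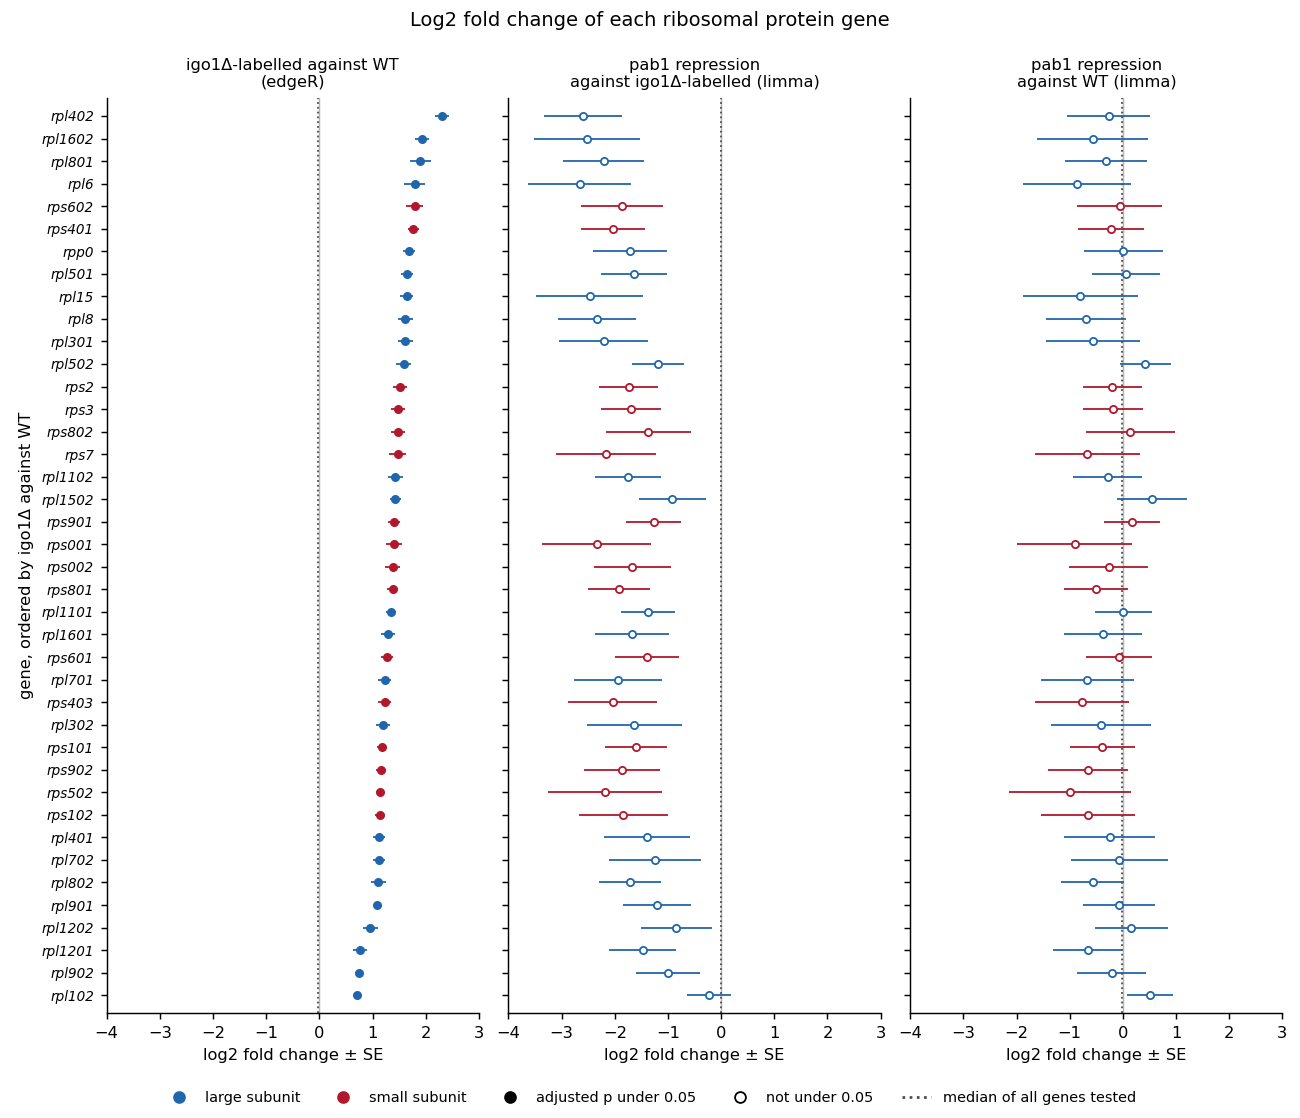
Log2 fold change of 40 of the 41 genes (points, bars show the SE) in the 3 comparisons, with blue for the large and red for the small subunit and filled points for an adjusted p under 0.05. All 40 points are filled in the igo1Δ-labelled libraries against WT, from 0.70 to 2.30, and none in the other comparisons, where the bars are up to several times wider.

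The highest fold change was that of *rpl402* (SPBP8B7.03c), one of the copies for uL4, a protein that lines the exit tunnel of the nascent chain. It had 2536 and 2562 normalised reads in WT and 10821 and 14593 in the *igo1*Δ-labelled libraries, a log2 fold change of 2.30 (SE 0.13, n = 2 and 2, adjusted p = 2.22e-06 by edgeR). The groups stood far apart, and the gap between the *igo1*Δ-labelled libraries was smaller than the gap between groups. *rpl1602* (SPAC23A1.11), a copy for uL13, had 1539 and 1440 in WT and 4735 and 6733 in the *igo1*Δ-labelled libraries (log2 1.93, SE 0.14). *rpl801* (SPAC1F7.13c) codes for uL2, which lies close to the peptidyl transferase centre, and had 2264 and 2060 against 6096 and 10214 (log2 1.90, SE 0.20). *rps602* (SPAPB1E7.12) codes for eS6, the target of S6 kinase, and had 1520 and 1514 against 4295 and 6358 (log2 1.79, SE 0.16). In all of them, as for the median member, replicate 2 of the *igo1*Δ-labelled libraries was the higher one.

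The smallest changes were all in the large subunit. *rpl102* (SPBC30D10.18c), whose product uL1 forms the mobile stalk at the tRNA exit site, had 1057 and 1113 normalised reads in WT and 1812 and 1738 in the *igo1*Δ-labelled libraries (log2 0.70, SE 0.07, adjusted p = 7.38e-05 by edgeR). *rpl902* (SPCC613.06), for uL6, had 1989 and 2001 against 3320 and 3425 (log2 0.74, SE 0.07). These genes were also among the most even between replicates, and their rises passed the test. The copies for uL11 followed. *rpl1201* (SPCC16C4.13c) had 578 and 618 against 889 and 1174 (log2 0.77, SE 0.13), and *rpl1202* (SPCC31H12.04c) had 535 and 589 against 933 and 1288 (log2 0.96, SE 0.14). Between 73.8% and 85.1% of the 50-base stretches of these genes occur more than once in the genome, so reads may have been divided between them uncertainly.

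Other members with set roles lay between these ends. *rpp0* (SPCC18.14c) codes for uL10, or P0, which anchors the stalk that recruits translation factors, and had 3531 and 3271 normalised reads in WT and 9846 and 12137 in the *igo1*Δ-labelled libraries (log2 1.68, SE 0.11). *rps2* had 5737 and 5763 against 14058 and 18988 (log2 1.51, SE 0.13). *rpl302* (SPAPB8E5.06c), a copy for uL3 near the peptidyl transferase centre, had 1636 and 1633 against 3168 and 4405 (log2 1.19, SE 0.13), although 56.1% of its stretches are repeated. The 37 members with less than 50% repeated sequence had the same median of 1.41.

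The size of the change was then set out by subunit and by promoter letters. The 24 large subunit genes had a median log2 fold change of 1.39 (0.70 to 2.30) and the 17 small subunit genes of 1.41 (1.14 to 1.79). Members with the exact HomolD letters had a median of 1.42 and the 11 without them had 1.29, with ranges that overlapped from 1.11 to 1.93. Members with a HomolE core had a median of 1.46. The 11 are not shown to lack the element, since a near match stands before each of them. Examples are cagtcacg before *rpl402* and *rpp0*, cagtcact before *rps002* and ccgtcaca before *rpl1601*. These are descriptions, and no difference between the subgroups was tested.

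The rise held with each library left out, when the median ran from 1.18 to 1.62, and in 11 of the 12 settings tried all 41 genes stayed called. The exception was a single edgeR fit of all 6 libraries, in which the *pab1*-repression pair contributes to the estimated spread. There the fold changes had a median of 1.42 but 0 of 41 passed, with adjusted p from 0.0689 to 0.430 where 8.34% of all genes were called higher. At an unadjusted p under 0.05, 14 of 41 were higher, against 17.1% of all genes.

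As a share of all reads on genes, the 41 genes together took 0.570% and 0.557% in WT and 1.13% and 1.35% in the *igo1*Δ-labelled libraries. Their exact binomial 95% intervals were 0.566 to 0.574 and 0.553 to 0.560 in WT and 1.12 to 1.13 and 1.34 to 1.35 in the *igo1*Δ-labelled libraries, and they cover counting error only. The *pab1*-repression libraries took 0.984% (0.979 to 0.988) and 0.241% (0.238 to 0.243). Replicate 1 thus fell between WT and the *igo1*Δ-labelled libraries, and replicate 2 below both. With 2 libraries against 2 the smallest two-sided permutation p is 0.333, so no such test was made.

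Paralogs among the 41 genes were then set side by side, since a pair codes for one protein. Any further copies among the other cytosolic ribosomal protein genes were not counted. The 41 genes held 17 pairs (34 genes) and 7 single members, *rpl102*, *rpl6*, *rpl8*, *rpp0*, *rps2*, *rps3* and *rps7*. Summed over both copies, the level in the *igo1*Δ-labelled libraries was 1.85 to 3.56 times that in WT, with a median of 2.70, and both copies of every pair passed the test. The division of reads between copies was compared next. In 12 of 17 pairs both *igo1*Δ-labelled libraries lay outside the range of the WT libraries, and in 8 of these the 95% intervals (exact) of the groups were also apart. Libraries in random order would place both on one side of WT with a probability of 0.333, and no share over other gene pairs was computed. The 12 include the pair for eS1, which moved by 0.52 points. The WT replicates themselves differed by up to 4.00 points.

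The pair for uL4 shifted most. *rpl401* (SPBC1711.06) gave 51.0% and 51.3% of the pair's reads in WT and 31.6% and 31.7% in the *igo1*Δ-labelled libraries, a difference of -19.51 points. Its log2 fold change was 1.12 beside 2.30 for *rpl402*, and neither copy held repeated sequence. In the *pab1*-repression libraries the share was 53.4% and 49.6%, on both sides of the WT values. The pair for uL2 moved the other way by 11.16 points, as *rpl801* rose by log2 1.90 and *rpl802* by 1.11. For uL13, *rpl1602* rose by 1.93 and *rpl1601* by 1.29, and the share of *rpl1601*, 49.4% and 52.1% in WT, differed by -10.94 points.

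The remaining shifts were smaller. For eS4 *rps401* rose by log2 1.77 and *rps403* by 1.23, and for eS6 *rps602* by 1.79 and *rps601* by 1.27. For uL3 *rpl301* rose by 1.62 and *rpl302* by 1.19, and for uL6 *rpl901* by 1.09 and *rpl902* by 0.74. The intervals of the single libraries, which cover counting error only, were apart between the groups in these pairs and in those for uL4, uL2 and uL13. Repeated stretches make up 66.8% of *rpl301*, 56.1% of *rpl302*, 85.1% of *rpl1201* and 73.8% of *rpl1202*. Reads may thus have been divided uncertainly in the pairs for uL3 and uL11, which the intervals do not cover. For uS4 *rps901* rose by 1.41 and *rps902* by 1.16, for eL15 *rpl15* by 1.64 and *rpl1502* by 1.43, for uL11 *rpl1202* by 0.96 and *rpl1201* by 0.77, and for eS1 *rps101* by 1.17 and *rps102* by 1.14. In the other 5 pairs the log2 fold changes of the copies lay within 0.11 of each other. They were *rpl501* (1.65) with *rpl502* (1.59) for uL18 and *rpl1101* (1.35) with *rpl1102* (1.43) for uL5, both of which bind 5S ribosomal RNA, *rpl701* (1.23) with *rpl702* (1.12) for uL30, *rps001* (1.41) with *rps002* (1.38) for uS2, and *rps801* (1.38) with *rps802* (1.48) for eS8.

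The division in the *pab1*-repression libraries was set against WT in the same way. In 11 of 17 pairs both libraries lay on the same side of both WT libraries, against the 12 of 17 in the *igo1*Δ-labelled libraries. In some other pairs they lay on opposite sides, as for *rpl1601* of the uL13 pair (46.2% and 61.9%, against 49.4% and 52.1% in WT). The probability of 0.333 in random order applies to each pair here too. For uS4 *rps901* had 60.9% and 61.8% of the reads in WT and 69.2% and 78.0% in the *pab1*-repression libraries. For eL15 *rpl15* had 75.3% and 73.0% in WT and 63.3% and 42.7% there, with the replicates far apart.

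**Figure D3:**
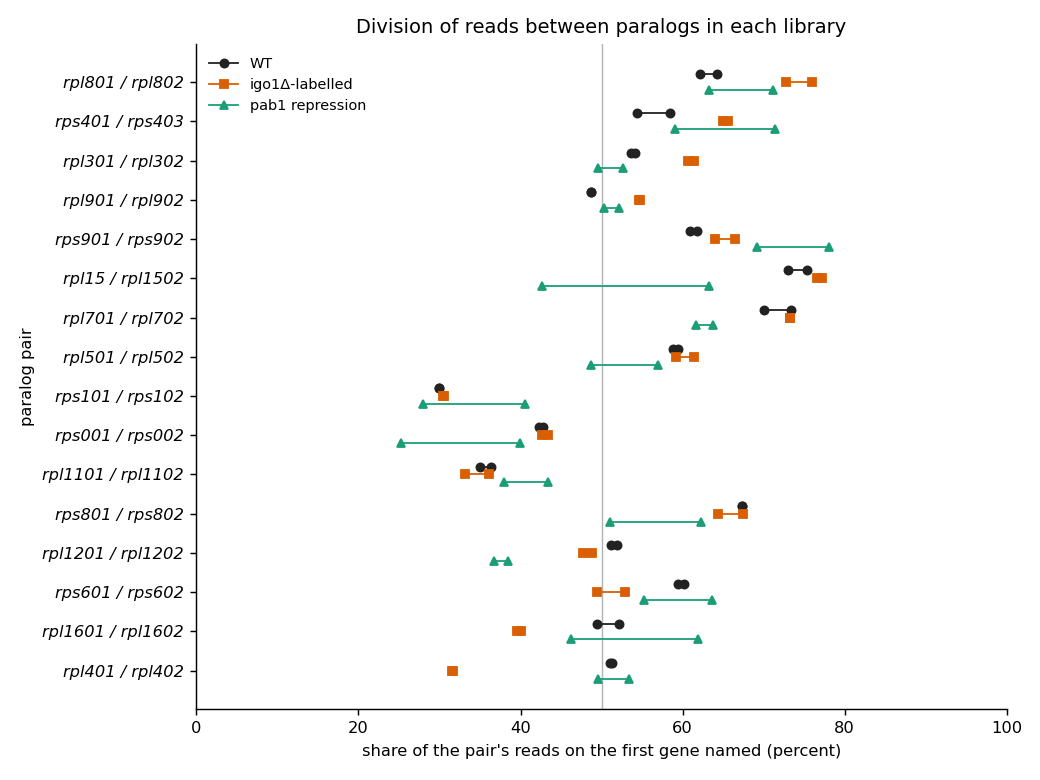
Share of a pair's reads that fell on the first gene named, in percent, for 16 of the 17 pairs, with 1 symbol per library joined by a line within each group. The rpl401 share is 51.0% and 51.3% in WT and 31.6% and 31.7% in the igo1Δ-labelled libraries, and the pab1-repression replicates lie up to 20.6 points apart.

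The second comparison set the *pab1*-repression libraries against the *igo1*Δ-labelled ones. The fitted log2 fold changes of all 41 genes were below 0, from -0.23 (*rpl102*) to -2.66 (*rpl6*), with a median of -1.71 where the median over all 6046 genes tested was 0.00. None of the 41 passed the test (limma, adjusted p from 0.0957 to 0.727), where 6.12% of all genes were called lower. At an unadjusted p under 0.05 there were 15 of 41, and the share over all genes at that threshold is not given here. DESeq2 on recovered reads called 9 of 41 lower, against 12.0% of all genes. For 35 of 41 both *pab1*-repression libraries lay below both *igo1*Δ-labelled libraries, against 32.9% of all genes. The other 6 (*rpl102*, *rpl1202*, *rpl1502*, *rpl401*, *rpl702* and *rps802*) had replicate 1 within or above the range of the *igo1*Δ-labelled libraries.

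The spread lay within the *pab1*-repression pair. *rpl6* (SPCC622.18), for eL6 of the large subunit, had 8825 and 14054 normalised reads in the *igo1*Δ-labelled libraries and 4779 and 681 in the *pab1*-repression libraries (log2 -2.66, SE 0.97, adjusted p = 0.145 by limma). *rpl402* had 4465 and 1011 in the *pab1*-repression libraries (log2 -2.60, SE 0.74), *rpl1602* had 2766 and 367 (log2 -2.52, SE 0.99), and *rpl15* (SPCC576.11), a copy for eL15, had 3624 and 450 after 5999 and 8003 in the *igo1*Δ-labelled libraries (log2 -2.47, SE 1.01). In each, replicate 2 was several times below replicate 1. At the other end, *rpl102* had 2324 and 1041 (log2 -0.23, SE 0.42), *rpl1202* had 1199 and 330 (log2 -0.84, SE 0.66), *rpl1502* (SPAC1783.08c) had 2105 and 605 after 1835 and 2367 (log2 -0.92, SE 0.63), and *rpl902* had 3191 and 933 (log2 -1.00, SE 0.61). Even these members had the lowest level of the 4 libraries in replicate 2.

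With only replicate 2 of the *pab1*-repression libraries, 41 of 41 were called lower, with a median of -2.71, against 33.4% of all genes. With only replicate 1, 32 of 41 were called lower, with a median of -0.73, against 30.4% of all genes, and *rpl102* was called higher (log2 0.37) where 25.3% of all genes were. The lone library is assumed in these fits to vary like the other group. The median of the 41 was thus lower with either *pab1*-repression library, and its size depended on which was used. With replicate 1 alone, 38 of the 41 log2 fold changes were below 0 and 3 were above it.

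The third comparison set the *pab1*-repression libraries against WT, and here the replicates fell on opposite sides. In all 41 genes replicate 1 lay above both WT libraries and replicate 2 below both, a pattern held by 16.0% of all genes. Relative to the WT mean, the median member stood at log2 0.70 in replicate 1 and -1.33 in replicate 2, while the median of all genes was 0.00 in both. Replicate 1 was 1.17 (*rpl1201*) to 2.73 times (*rpl1502*) the WT mean. The WT mean was 1.04 (*rpl102*) to 6.06 times (*rps502*) the level of replicate 2.

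**Figure D4:**
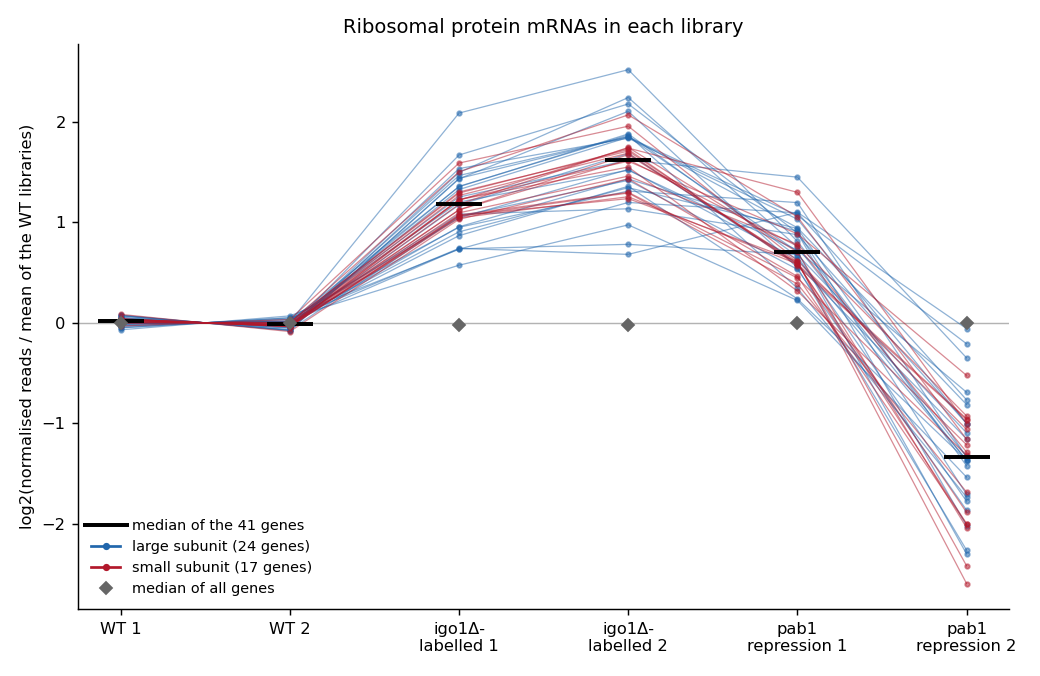
Level of each of the 41 genes in each library as log2 of its normalised reads over the mean of the WT libraries, with 1 line per gene, black bars for the median of the 41 and grey diamonds for the median of all genes. The medians are 1.18 and 1.62 in the igo1Δ-labelled libraries and 0.70 and -1.33 in the pab1-repression libraries, which lie on either side of WT for all 41 genes.

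Fitted together, the pair gave no call. The log2 fold changes ran from -1.00 to 0.54 with a median of -0.29, 0 of 41 passed the test in limma and 0 of 41 had an unadjusted p under 0.05, and 0.0331% of all genes were called lower. The standard errors ran up to 1.15, against 0.20 in the first comparison, where they were derived from edgeR's F values. The sign of the median depended on the tool, since it was 0.01 in edgeR and 0.02 in DESeq2. With only replicate 2, 40 of 41 were called lower, with a median of -1.35, against 36.2% of all genes, and *rpl102* was the one not called. With only replicate 1, 40 of 41 were called higher, with a median of 0.71, against 29.9% of all genes, and *rpl1201* was the one not called. The direction of the 41 genes against WT therefore depended on which replicate was used.

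The members at the ends of this comparison show the same split. *rpl1502* had 766 and 777 normalised reads in WT and 2105 and 605 in the *pab1*-repression libraries (log2 0.54, SE 0.66), and *rpl502* (SPBC11C11.09c) had 1763 and 1694 against 3622 and 1494 (log2 0.42, SE 0.48). *rps901* (SPAC24H6.07), for uS4, had 1958 and 1921 against 3579 and 1348 (log2 0.17, SE 0.52), and *rpl102* had a log2 fold change of 0.51 (SE 0.44). Here replicate 1 stood far above WT and replicate 2 a little below it. *rps502* (SPAC328.10c) had 1777 and 1695 in WT against 2649 and 287 (log2 -1.00, SE 1.15), and *rps001* (SPBC685.06), for uS2, had 1912 and 1844 against 2859 and 351 (log2 -0.91, SE 1.09). *rpl6*, with 3446 and 3096 in WT, and *rpl15*, with 2333 and 2104, had log2 fold changes of -0.86 (SE 1.01) and -0.80 (SE 1.08). In these genes it was replicate 2 that stood further from WT. *rpp0* (6944 and 1696), *rps2* (8513 and 2945) and *rpl302* (3066 and 500) had log2 fold changes of 0.01, -0.20 and -0.41.

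Between the replicates, replicate 1 exceeded replicate 2 by 2.23 (*rpl102*) to 9.24 times (*rps502*), and by 4.14 times in the median member. As log2 values, the median gap was 2.05 in the *pab1*-repression pair, -0.42 in the *igo1*Δ-labelled pair and 0.03 in WT, against -0.02, -0.01 and 0.00 over all genes. The other 102 cytosolic ribosomal protein genes measured had a median gap of 2.17 in the *pab1*-repression pair. The long non-coding and ribosomal RNA shares given above moved with replicate 2, and their part in the gap was not tested.

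Other genes of the translation machinery were then listed by function. Over all genes 29.6% were called higher and 30.1% lower in the *igo1*Δ-labelled libraries against WT. Of the other cytosolic ribosomal protein genes 101 of 102 were called higher, with a median log2 fold change of 1.46. The highest were *rps1402* (2.07) and *rpl2502* (2.01), *rpl3801* rose by 0.45, and the one not called was *rpl3402* (-0.08, adjusted p = 0.536 by edgeR). Of 21 translation factor genes 17 were called higher and 1 lower, with a median of 0.53. *pabp*, for the poly(A)-binding protein and a different gene from *pab1*, rose by 1.38 and *tef101*, for elongation factor EF-1 alpha, by 1.34, while *tif45* (eIF4E) had 0.07 and *tif5* fell by 0.22 (log2 -0.22, SE 0.07).

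The remaining lists had medians closer to that of all genes. Of 45 ribosome assembly genes 14 were called higher and 11 lower, with a median of 0.05, which is near the shares over all genes. *fib1* (fibrillarin) rose by 1.08 and *sqt1* by 0.89, whereas *nip7* and *nop10* had log2 fold changes of -0.93 and -0.87, both called. Of 75 genes for mitochondrial ribosomal proteins 13 were higher and 18 lower (median -0.13), both smaller shares than over all genes, from -0.91 (*mrpl44*) and -0.85 (*mrp49*) to 0.59 (*mrpl4*) and 0.80 (*fyv4*), all called. Of 18 genes for RNA polymerase I and regulators of ribosomal genes 10 were higher and 1 lower (median 0.25). *gcn2*, for an eIF2 alpha kinase, rose by 1.01 and *fil1*, a GATA factor, by 0.95, *sck2*, an S6 kinase family member, had -0.63 and was called, and *rrn7* had -0.25 and was not.

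**Figure D5:**
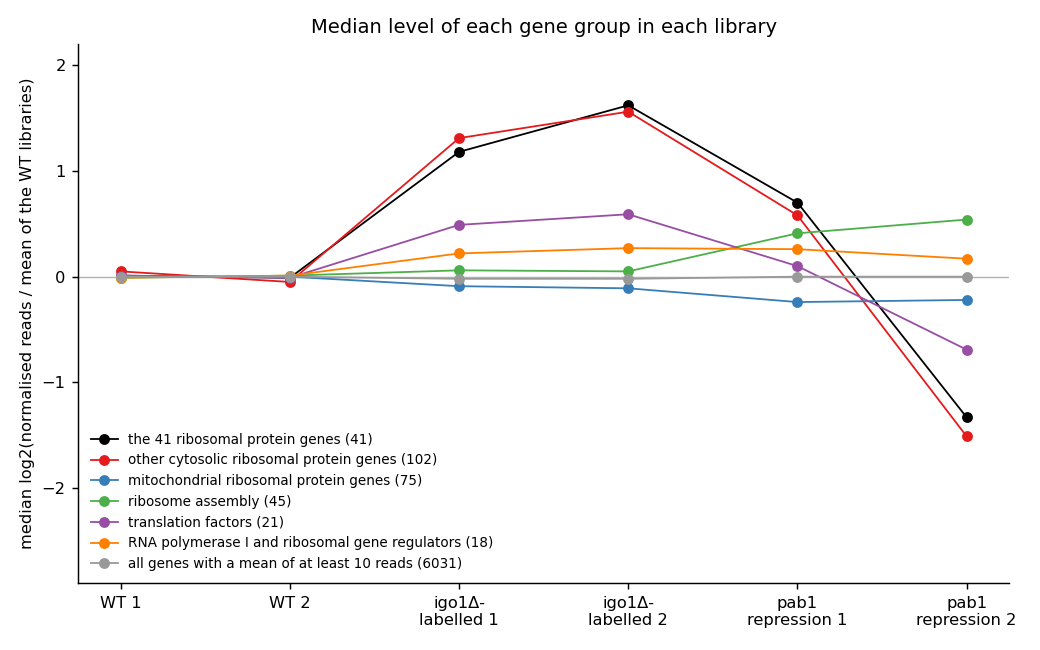
Median of each gene group in each library, as log2 of normalised reads over the mean of the WT libraries, with the number of genes in brackets. The 41 genes and the other cytosolic ribosomal protein genes move together (1.18 and 1.31, 1.62 and 1.56, 0.70 and 0.58, -1.33 and -1.51 in the last 4 libraries), while the mitochondrial ribosomal protein genes stay between -0.24 and 0.00.

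In the second comparison the other cytosolic ribosomal protein genes had a median of -1.92, and 3 of 102 were called lower, a smaller share than the 6.12% of all genes. Their median was -3.00 with replicate 2 alone and -0.82 with replicate 1 alone. The 3 genes called with both libraries were *rps3002* (log2 -1.94, SE 0.24), *rps23* (-1.67, SE 0.27) and *rps1202* (-2.31, SE 0.45), singled out after their values were seen. *rps3002* had 2519 and 3425 normalised reads in the *igo1*Δ-labelled libraries and 841 and 734 in the *pab1*-repression libraries, so its replicates lay closer together than those of any of the 41 members. Translation factors had a median of -1.09 with only *tif211*, for a subunit of eIF2, called lower (log2 -1.24). Their median was -1.33 with replicate 2 alone and -0.57 with replicate 1 alone. Ribosome assembly genes had a median of 0.29 and 6 of 45 were called higher, led by *rio1* (2.15), against 2.91% of all genes, and 1 of 75 mitochondrial ribosomal protein genes was called higher (*rsm27*, 1.10). The list genes called with both libraries were also called, in the same direction, with either library alone. None of the 18 RNA polymerase I and regulator genes was called (median -0.16). Against WT the *pab1*-repression libraries gave no call in any of these lists, with medians of -0.46, -0.32, 0.45, -0.21 and 0.14 in the order just given. Against WT the 102 other cytosolic ribosomal protein genes had a median of -1.53 with replicate 2 alone and of 0.59 with replicate 1 alone. Ribosome assembly genes had medians of 0.52 and 0.41 in these fits. Translation factors had medians of -0.71 and 0.11.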

How the data were processed

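RNAseq (Illumina TruSeq Stranded Total RNA) was analysed in 6 libraries of 3 labelled groups. Per the labels, the authors used FastQC 0.11.8, Trimmomatic 0.38, HISAT2 2.1.0, featureCounts (Subread 1.6.3) and DESeq2 with build ASM294v2. The settings for strand and for reads with several matches are not given in the sources used here. The values the authors deposited are a normalised signal, the reads of each gene divided by a DESeq2 size factor, in 2 tables scaled separately. The smallest positive value of a column was taken as 1 read. Division by it gave whole numbers (within 0.01) for 100% of values, and these were used as reads. The *pab1*-repression libraries gave the same reads for 7001 genes in both tables.

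The *igo1*Δ-labelled libraries were set against WT in edgeR 4.0.16 (quasi-likelihood test after TMM scaling) on the recovered reads. The other comparisons used limma 3.58.1 with a trend on log2(normalised count + 1), within a table, so fold changes of low genes are understated there. Genes needed a mean of at least 10, which all 41 members met, and p-values were adjusted by Benjamini-Hochberg over all genes tested. The steps were tested on simulated data with the same spread in every library. That test does not cover the gap between the *pab1*-repression libraries. Alternatives were DESeq2 1.42.0, other scalings, filters (none, or a mean of 50) and pseudocounts (0.1 and 10), a joint fit of all 6 libraries, a block for the replicate number, and each library left out.

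Symbols, promoters, codons and repeats came from RefSeq (ASM294v3), to which 6852 of 7001 identifiers (97.9%) were matched. The members and gene lists were chosen with earlier results of these data known. Listed symbols without a match were not used, nor was *rrp1*, which RefSeq gives to another gene. Library values are given for the 4 members with the highest and the 4 with the lowest fold change in each comparison and for *rpp0*, *rpl302* and *rps2*, and of each list the 2 highest and 2 lowest genes against WT are named. The values of 1 member are not reported here, and it counts only in totals over the 41. Calculations used R 4.3.3 and Python 3.11.15.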

Additional observations from a re-analysis of the deposited data

How the results depend on the processing

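For the *igo1*Δ-labelled libraries against WT, the number of the 41 genes called higher was 41 in every setting but the fit of all 6 libraries, where it was 0. With each library left out the median ran from 1.18 to 1.62. Upper-quartile scaling moved the median of all genes to -0.14 and that of the 41 to 1.29. For the *pab1*-repression libraries against the *igo1*Δ-labelled ones, some of the 41 were called lower with DESeq2 (9) and with the replicate block (2). Over all genes, DESeq2 called 729 of 6064 lower and the replicate block 374 of 6046. Some were also called lower with a *pab1*-repression library left out, where the median was -2.71 (without replicate 1) or -0.73 (without replicate 2). The number called lower was 0 in every other setting. The number called higher was 0 to 1. Against WT the median of -0.29 changed sign in edgeR (0.01), in DESeq2 (0.02) and without replicate 2 of the *pab1*-repression libraries, and ran from -1.35 to 0.71 with libraries left out, when 0 to 40 genes were called lower and 0 to 40 higher. The cause was not tested.

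The replicate numbers shared by the groups gave correlations of 0.13, 0.02 and 0.12 over 2 pairs each, which do not pair the libraries, and the replicate block changed no other call of the 41 genes. The difference in share between groups for *rpl701* in its pair changed from 1.53 to -0.20 points without replicate 2 of WT, and without replicate 2 of the *igo1*Δ-labelled libraries those for *rpl1101* and *rps801* changed from -1.06 to 0.45 and from -1.43 to 0.10 points. Each library's total limits the precision of the shares less than the 2 libraries a group do.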
